A study of Mus musculus with 10 samples.

Results

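The genes described here are the autophagy machinery, a list of 36 named genes that build the autophagosome and load it with cargo. They were chosen by name and role, with no threshold on the measured values, but with earlier results of these data known. Livers of B6/129 mice, strain 129S1/SvImJ;C57Bl/6J (129/B6), were taken 8 weeks into the diet. Mice labelled WD SW ate a high fat Western diet with a fructose-glucose solution to drink, and those labelled CD ate chow with normal water. Illumina mouse bead arrays with 45281 probes measured the total RNA, with 1 array for each of 10 livers, 5 of each diet. They were males of 8 to 12 weeks of age when put on the diet, from 1 line that was kept by inbreeding. Whole liver RNA mixes cell types, so fewer cells of a type and less RNA per cell cannot be told apart.

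In autophagy a cell encloses part of its own cytoplasm in a double membrane and delivers it to the lysosome. The ULK1 kinase complex starts the process, the class III phosphatidylinositol 3-kinase complex marks the membrane with its lipid, and transfer proteins such as ATG2 feed the growing phagophore. Enzymes that resemble the ubiquitin cascade then attach the ATG8 family proteins (LC3 and GABARAP) to the membrane, where cargo receptors such as p62 bind them. In hepatocytes the pathway is known for recycling proteins and mitochondria during fasting and for breaking down lipid droplets. Much of its control acts on proteins, by phosphorylation and turnover, which RNA levels do not measure.

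Of the 36 members, 34 had at least 1 annotated probe and together held 71 probes. *Atg14* and *Optn* were paired with no probe here. A probe was tested where its signal exceeded the array's own background on at least 5 of the 10 arrays, which 48 of the 71 probes did. Each gene is given by its brightest tested probe, and 32 members had one. The probes of *Atg4a*, a protease of the ATG8 proteins, and of *Bnip3*, a receptor for mitochondria, were above background on 1 array each, so that both genes stayed untested. Of the 32 tested members, 27 were above background on all 10 arrays.

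The promoters of the members with the 3 largest increases and of the one with the largest decrease are shown to give the sequence context of the genes on which the results turn. Each is the 250 bases before the RefSeq start (GRCm38.p6), written along the strand of the gene. Capitals mark the letters CACGTG, the core of the E-box bound by TFEB and related factors, and its extension TCACGTGA, both of which read the same on either strand.

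Sqstm1 (chr11:50210821-50211070, minus strand): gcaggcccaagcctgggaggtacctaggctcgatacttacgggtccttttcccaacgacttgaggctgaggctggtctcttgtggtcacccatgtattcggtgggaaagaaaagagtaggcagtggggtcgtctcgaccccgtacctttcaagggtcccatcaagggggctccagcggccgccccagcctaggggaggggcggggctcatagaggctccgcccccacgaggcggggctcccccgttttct
Gabarap (chr11:69991120-69991369, plus strand): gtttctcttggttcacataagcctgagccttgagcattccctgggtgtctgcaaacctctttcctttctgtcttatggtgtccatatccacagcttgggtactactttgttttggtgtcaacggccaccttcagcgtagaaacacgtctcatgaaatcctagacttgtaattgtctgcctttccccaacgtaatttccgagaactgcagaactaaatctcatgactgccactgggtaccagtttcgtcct
Atg3 (chr16:45158579-45158828, plus strand): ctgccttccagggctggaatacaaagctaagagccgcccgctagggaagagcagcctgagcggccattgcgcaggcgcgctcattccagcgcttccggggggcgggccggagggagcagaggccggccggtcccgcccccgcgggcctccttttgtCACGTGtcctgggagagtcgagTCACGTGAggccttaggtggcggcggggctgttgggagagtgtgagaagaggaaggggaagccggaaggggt
Atg2a (chr19:6241418-6241667, plus strand): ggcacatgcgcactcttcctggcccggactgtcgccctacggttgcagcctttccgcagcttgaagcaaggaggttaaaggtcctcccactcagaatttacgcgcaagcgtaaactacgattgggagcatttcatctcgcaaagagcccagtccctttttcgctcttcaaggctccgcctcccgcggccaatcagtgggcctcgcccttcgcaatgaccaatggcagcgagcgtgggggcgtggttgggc

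The *Atg3* window held CACGTG 2 times, beginning 94 and 71 bases before the start, and the second copy lay inside TCACGTGA. The letters were not found in the windows of the other 3 genes. Of the 29 members with a promoter in the RefSeq table, *Atg3*, *Atg5*, *Atg7* and *Bnip3* held CACGTG and only *Atg3* held TCACGTGA, against 6.02% and 0.785% of all 32851 promoters. The core of the antioxidant response element, TGACNNNGC on either strand, was found in the windows of *Atg13* and *Ulk2* and in 10.2% of all promoters. These matches describe the letters in these windows and not bound sites.

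The first question was how the members as a group stood between the diets. Of the 32 tested, 7 were higher in WD SW, namely *Sqstm1*, *Gabarap*, *Atg3*, *Nbr1*, *Becn1*, *Gabarapl1* and *Ulk1*, and 3 were lower, namely *Atg2a*, *Wipi1* and *Atg4c* (limma, adjusted p under 0.05 over all tested probes). The 10 calls make up 31.2% of the tested members, and 30.0% of all 10187 genes tested were called, so the share of members called was near that of any gene on the array. Calls in the higher direction made up 14.5% of all genes and in the lower direction 15.4%. The median log2 fold change (WD SW minus CD) over the 32 members was 0.02, beside -0.05 over all genes tested. Among the 10 called members, 4 differed by more than 2-fold (*Sqstm1*, *Gabarap*, *Atg3* and *Atg2a*), where 6.32% of all genes were called at that size. Counted by probe, 10 of the members' 48 tested probes were higher and 4 lower, beside 31.3% of all tested probes called in either direction. The 5 WD SW values lay wholly above the 5 CD values for 5 members and wholly below for 1, beside 9.36% and 10.3% of all genes, or 19.6% in either direction. *Nbr1*, counted among the higher calls and the 5 without overlap, passed the detection filter only through the WD SW arrays. With arrays scaled to the median of the tested probes, an alternative added once the values were known, the median of all genes shifted to -0.22 and the split of the members became 6 higher and 6 lower. With arrays scaled to the median of all probes it shifted to 0.48, and 20 members were called higher.

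**Figure D1:**
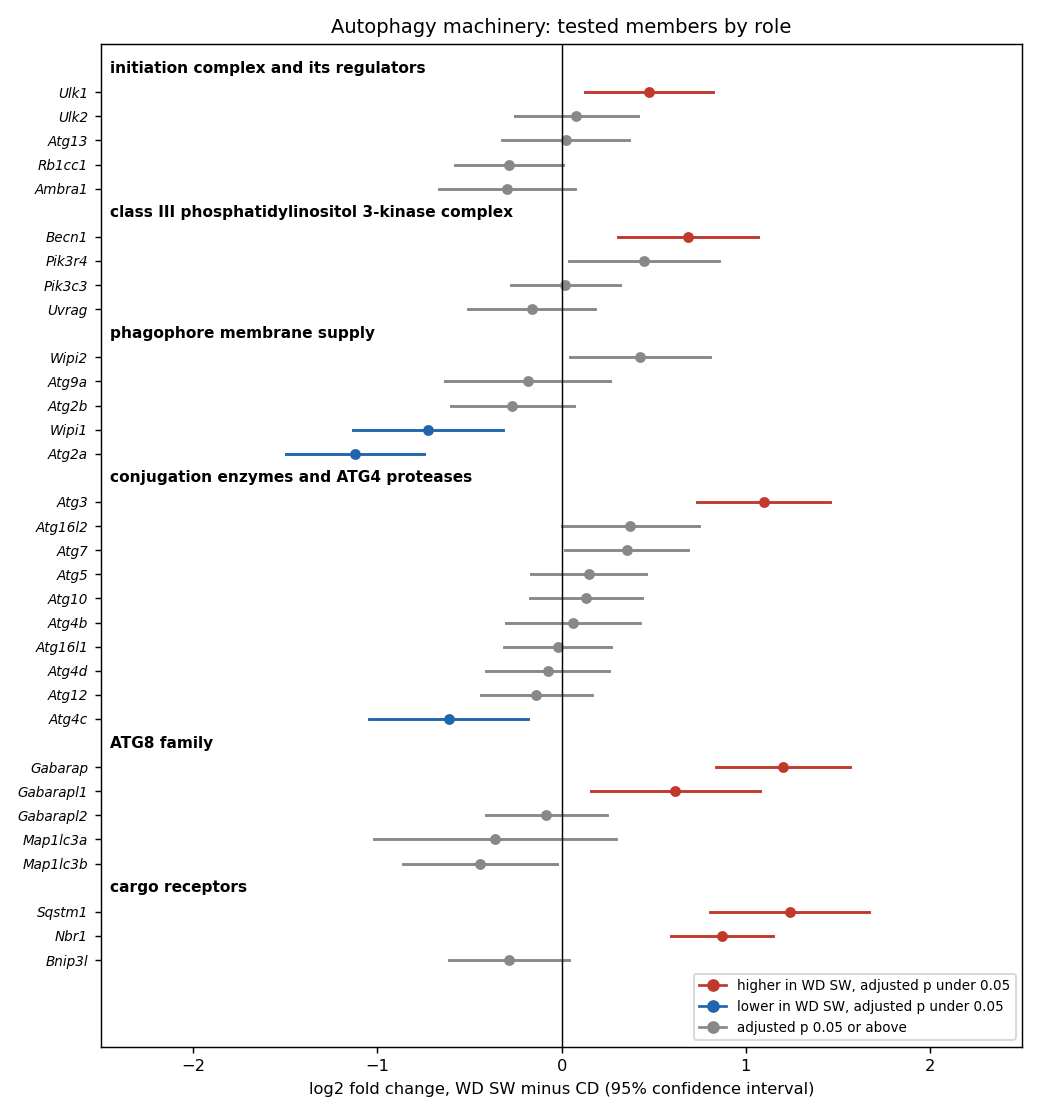
The log2 fold change (WD SW minus CD) of the 32 tested members on the x axis, grouped by role, as points with 95% confidence intervals. Members higher in WD SW at an adjusted p under 0.05 (7, red) and lower (3, blue) stand among 22 that did not pass (grey), and both directions occur among the conjugation enzymes.

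A feature of the whole series bears on these comparisons. The signal at the 95th percentile of an array was 870 to 1023 on the WD SW arrays and 921 on CD replicate 1, but 403 to 548 on CD replicates 2 to 5. Quantile normalization removes differences in overall distribution, and what remains of them in single genes was not tested apart from the values below. CD replicate 1 was the CD array nearest to the WD SW mean for 6 of the 10 called members and for 35.7% of all called genes. Each member was therefore also fitted with array brightness as a covariate and against CD replicate 1 alone, whose spread was then taken to be that of the WD SW arrays. Brightness ran nearly with diet, so the covariate fit leans on CD replicate 1 and its SEs were larger (*Sqstm1*, 0.32 against 0.20). The 2 fits are thus not separate checks, and a call lost in them does not show that a difference is absent. With the covariate 2 of the 10 calls remained, *Atg2a* and *Nbr1*. They made up 6.25% of the 32 tested members, and 4.12% of all genes were called in that fit. Against CD replicate 1 alone 9 of the 10 kept their sign, all but *Atg4c*. The 10 were called with these same arrays, so a kept sign was likely beforehand and is no separate support. *Nbr1* was at background on every CD array, so these fits compare nothing measured in CD for it.

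Among cargo receptors, *Sqstm1* and *Nbr1* rose and *Bnip3l* did not pass the test. *Sqstm1* encodes p62, which binds ubiquitinated cargo and ATG8 proteins, is itself degraded by autophagy and is also a transcriptional target of NRF2. Its log2 signals (probe ILMN_2710705) on WD SW replicates 1 to 5 were 11.53, 10.68, 10.98, 11.47 and 10.90. On CD replicates 1 to 5 they were 10.31, 9.82, 9.40, 10.10 and 9.75. Every WD SW array lay above every CD array, and the highest CD array was the bright replicate 1. The increase was 1.24 ± 0.20 on the log2 scale (± SE, 5 arrays in each group, here and for the other genes), or 2.36-fold (adjusted p = 0.000456). It was 0.88 ± 0.32 with brightness as a covariate (adjusted p = 0.128) and 0.80 ± 0.31 with CD replicate 1 as sole control (adjusted p = 0.129), and passed in neither.

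*Nbr1*, a receptor that acts beside p62 on ubiquitinated proteins, was above background on all 5 WD SW arrays and on none of the CD arrays. Since it passed the detection filter only through the WD SW arrays, a difference was built into its being tested. Its log2 signals (ILMN_1220889) were 5.87, 5.49, 5.91, 5.85 and 5.79 on the WD SW arrays and 4.96, 4.98, 4.74, 4.91 and 4.97 on the CD arrays. The groups did not overlap. *Nbr1* was at least 1.54-fold higher in WD SW, where the bound takes the lowest detected signal of each CD array as its floor. The bound itself was not tested. The fitted difference of 0.87 (limma, adjusted p = 0.000246) used the CD values at background without this floor. The difference moved with the treatment of background, to 0.36 without background correction and 0.37 in the authors' normalized values. The call was lost with arrays scaled to the median of the tested probes (0.38 ± 0.16, adjusted p = 0.0621). The second *Nbr1* probe was above background on 4 WD SW arrays and was not tested.

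*Bnip3l*, the receptor for mitochondria also called NIX, was well above background on every array. It read 10.39, 10.12, 9.80, 9.75 and 10.11 on the WD SW arrays and 10.46, 10.38, 10.13, 10.15 and 10.49 on the CD arrays. The ranges overlapped and the log2 fold change of -0.29 ± 0.15 had a 95% interval from -0.61 to 0.04 (adjusted p = 0.168).

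Of the 5 genes of the ATG8 family, 2 rose and 3 did not pass. *Gabarap* encodes the founding member of the GABARAP branch, which acts in the late steps of autophagosome formation. It read (ILMN_1251333) 11.24, 10.65, 11.17, 11.31 and 11.15 on the WD SW arrays and 10.25, 10.03, 9.48, 9.97 and 9.78 on the CD arrays. The groups did not overlap, although WD SW replicate 2 lay well below the other WD SW arrays. *Gabarap* rose by 1.20 ± 0.17, or 2.30-fold (adjusted p = 0.000169). The value was 0.91 ± 0.27 with brightness as a covariate (adjusted p = 0.0715) and 0.85 ± 0.25 with CD replicate 1 as sole control (adjusted p = 0.0602), just beyond the threshold in both.

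*Gabarapl1*, a close relative in the same branch, read (ILMN_1236958) 10.65, 10.71, 10.55, 10.65 and 10.69 on the WD SW arrays, with the smallest SD of the 32 members (0.06). On the CD arrays it read 10.26, 10.62, 9.25, 9.70 and 10.33 (SD 0.55). CD replicate 2 lay within the WD SW range, and CD replicates 3 and 4 were the lowest. The increase of 0.62 ± 0.21 passed narrowly (adjusted p = 0.0404). Leaving out CD replicate 3 gave 0.42 ± 0.17 (adjusted p = 0.0855), leaving out CD replicate 4 gave 0.53 ± 0.22 (adjusted p = 0.0893), and leaving out both gave 0.24 ± 0.14 (adjusted p = 0.228). The call was also lost when any 1 of the 5 WD SW arrays was left out, with log2 fold changes from 0.60 to 0.64, and with the title number as a random block (0.61, adjusted p = 0.0701).

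The other 3 ATG8 genes did not pass. *Gabarapl2*, also known as GATE-16, read 6.30, 6.58, 6.00, 6.21 and 6.24 on the WD SW arrays and 6.49, 6.02, 6.43, 6.18 and 6.60 on the CD arrays (-0.08 ± 0.15, adjusted p = 0.721). *Map1lc3b*, the LC3 form most used as an autophagosome marker, read 8.40, 8.59, 8.24, 8.46 and 8.20 against 8.61, 8.21, 8.79, 9.42 and 9.07 (-0.44 ± 0.20, 95% interval -0.86 to -0.03, adjusted p = 0.0979). CD replicates 1, 3, 4 and 5 lay above all WD SW arrays and CD replicate 2 among them. *Map1lc3a* read 6.72, 6.63, 6.82, 7.63 and 7.42 on the WD SW arrays and 8.15, 8.14, 6.45, 6.95 and 7.34 on the CD arrays, where it varied most of all tested members (-0.36 ± 0.31, adjusted p = 0.396). The CD arrays with title number 12, replicates 1 and 2, held the 2 highest *Map1lc3a* values. Whether the change of *Gabarap* differed from that of the LC3 genes was not tested.

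**Figure D2:**
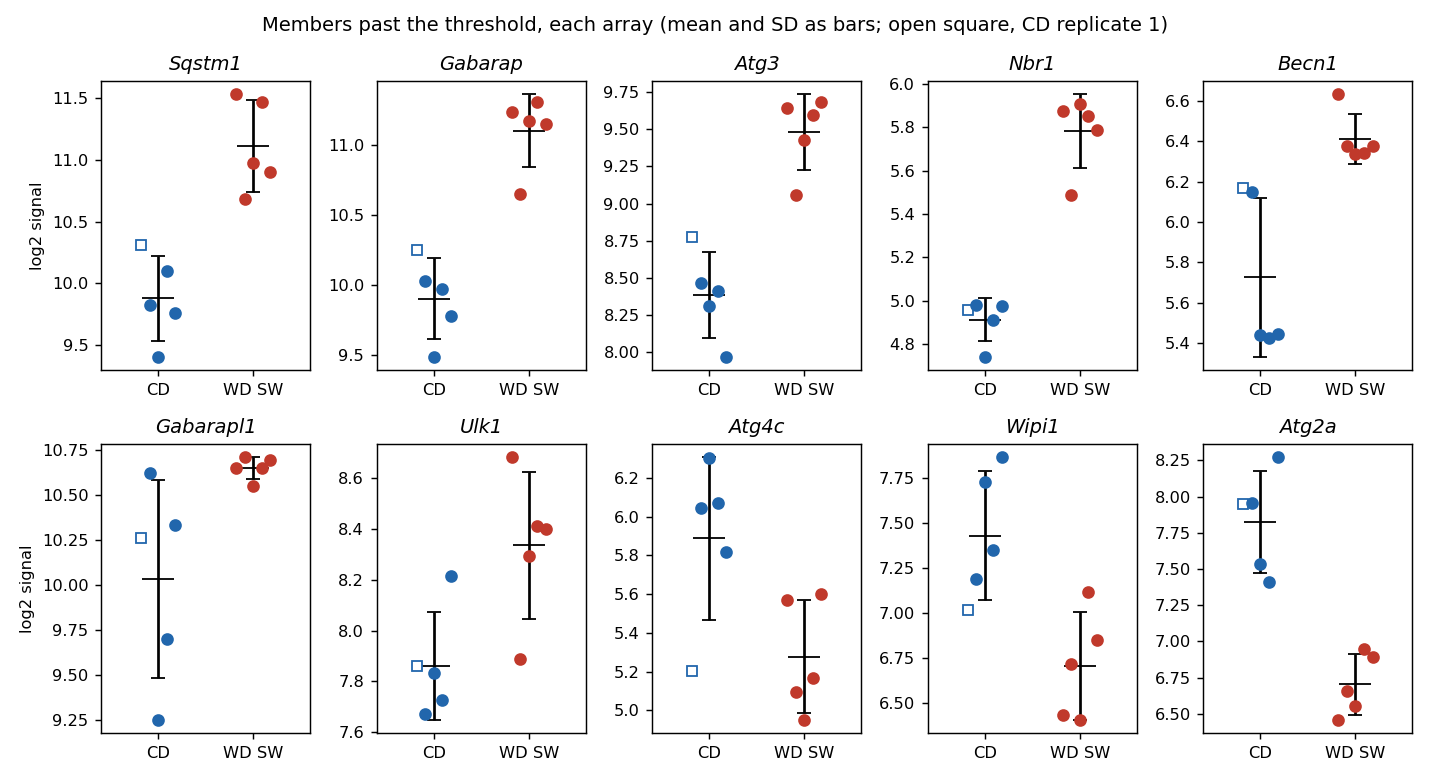
Log2 signal (y axis) of the 10 called members on each CD array (blue) and WD SW array (red), with the mean and SD as black bars and CD replicate 1 as an open square. The groups do not overlap for Sqstm1, Gabarap, Atg3, Nbr1, Becn1 and Atg2a, and CD replicate 1 is the CD array nearest to WD SW for 6 of the 10. Nbr1 was at background on every CD array.

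Among the enzymes that conjugate ATG8 proteins and the ATG4 proteases that process them, 1 of 10 tested genes rose, 1 fell and 8 did not pass. *Atg3* is the E2-like enzyme that transfers ATG8 proteins to phosphatidylethanolamine. Its brightest probe (ILMN_2651781) read 9.64, 9.06, 9.43, 9.60 and 9.68 on the WD SW arrays and 8.78, 8.47, 8.31, 8.41 and 7.97 on the CD arrays. The groups did not overlap, and the increase was 1.10 ± 0.17, or 2.14-fold (adjusted p = 0.000314). A second tested probe of *Atg3* gave -0.25 ± 0.15 (adjusted p = 0.209), so the increase was seen with 1 of 2 tested probes, and their average gave 0.42 (adjusted p = 0.0149). With the covariate it was 0.75 ± 0.26 (adjusted p = 0.115) and against CD replicate 1 alone 0.71 ± 0.25 (adjusted p = 0.0997).

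*Atg4c*, a cysteine protease that trims and delipidates ATG8 proteins, read (ILMN_2914796) 5.57, 5.09, 4.95, 5.17 and 5.60 on the WD SW arrays and 5.20, 6.05, 6.30, 6.07 and 5.82 on the CD arrays. Among the CD arrays replicate 1 alone lay within the WD SW range. The decrease of 0.61 (log2 fold change -0.61 ± 0.20, adjusted p = 0.0325) turned to 0.07 ± 0.27 against CD replicate 1 alone (adjusted p = 0.889) and was -0.06 ± 0.29 with the covariate (adjusted p = 0.94). The call was lost without WD SW replicate 2, 3 or 4 and without CD replicate 2, 3 or 4, with log2 fold changes from -0.59 to -0.51, and with the title number as a random block (-0.61, adjusted p = 0.0757). Without background correction the value was -0.29 (adjusted p = 0.0521). *Atg4c* was above background on 4 WD SW arrays and on all CD arrays.

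The remaining 8 lay between -0.14 (*Atg12*) and 0.37 (*Atg16l2*). *Atg12* is the ubiquitin-like protein that is joined to *Atg5* and then binds *Atg16l1*, and the values of *Atg5* (0.15 ± 0.15, 95% interval -0.17 to 0.46) and *Atg16l1* (-0.02 ± 0.14, -0.31 to 0.27) were close to 0. *Atg7*, the E1-like enzyme that activates both ubiquitin-like systems, stood at 0.35 ± 0.16 (adjusted p = 0.0997) and *Atg10*, the E2-like enzyme of ATG12, at 0.13 ± 0.14 (adjusted p = 0.509). A second *Atg5* probe gave a 95% interval of -0.27 to 0.27. The proteases *Atg4b* and *Atg4d* gave 0.06 ± 0.17 and -0.08 ± 0.16 at signals that were not above background on every array.

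In the class III phosphatidylinositol 3-kinase complex, *Becn1* rose and the other 3 tested genes did not pass. *Becn1* encodes beclin 1, the scaffold to which regulators of the kinase bind. Its brightest probe (ILMN_3090581) read 6.63, 6.38, 6.33, 6.34 and 6.38 on the WD SW arrays and 6.17, 6.15, 5.44, 5.43 and 5.45 on the CD arrays. The groups did not overlap, but CD replicates 1 and 2, which share a title number, lay near the WD SW range and CD replicates 3 to 5 further below it. The increase was 0.69 ± 0.18 (adjusted p = 0.00909), and a second probe gave 0.67 ± 0.19 (adjusted p = 0.0137). Without background correction the increase was 0.36 (adjusted p = 0.0133). With the covariate it was 0.11 ± 0.23 (adjusted p = 0.828). CD replicate 1 as the only control gave 0.24 ± 0.20 (adjusted p = 0.458), and leaving out CD replicates 3 and 4 gave 0.49 ± 0.18 (adjusted p = 0.066).

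The catalytic subunit *Pik3c3* (VPS34) differed by 0.02 ± 0.14 with a 95% interval from -0.27 to 0.31. Its membrane anchor *Pik3r4* (VPS15) stood at 0.45 ± 0.19 (adjusted p = 0.0861) and *Uvrag*, which joins the endosomal form of the complex, at -0.16 ± 0.16 (adjusted p = 0.475).

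In the initiation group, *Ulk1* rose and the other 4 did not pass. *Ulk1* is the protein kinase that AMPK activates and mTORC1 inhibits. It read (ILMN_1228475) 8.68, 7.89, 8.29, 8.41 and 8.40 on the WD SW arrays and 7.86, 7.67, 7.83, 7.73 and 8.21 on the CD arrays. WD SW replicate 2 and CD replicate 5 put the groups in overlap. The increase was 0.47 ± 0.16 (adjusted p = 0.0385), with 0.46 ± 0.16 at a second probe (adjusted p = 0.0388). Against CD replicate 1 alone the size was nearly the same at 0.47 ± 0.27 (adjusted p = 0.278), as it was with the covariate at 0.49 ± 0.28 (adjusted p = 0.331). The call held without WD SW replicate 2 (0.59 ± 0.16) and without CD replicate 5 (0.56 ± 0.16) and was lost on leaving out any 1 of the other 8 arrays, with values from 0.39 to 0.49. It was also lost with the title number as a random block (0.46, adjusted p = 0.0982) and without the detection filter (adjusted p = 0.0523).

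*Ulk2*, the paralog of *Ulk1*, stood at 0.08 ± 0.16 and *Atg13*, the adaptor of the complex, at 0.02 ± 0.16. *Rb1cc1*, which encodes the scaffold FIP200, gave -0.29 ± 0.14 (adjusted p = 0.125). The 3 tested probes of *Ambra1*, a regulator of beclin 1 and ULK1, differed. The brightest gave -0.30 ± 0.17 (adjusted p = 0.207) and another -0.39 ± 0.16 (adjusted p = 0.0799). The remaining probe (ILMN_2760593) rose by 1.21 ± 0.21 (adjusted p = 0.000627), from 5.23, 5.88, 4.79, 4.83 and 4.85 on the CD arrays, where it was above background on 2 of 5, to 6.25, 5.96, 6.52, 6.60 and 6.30 on the WD SW arrays.

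**Figure D3:**
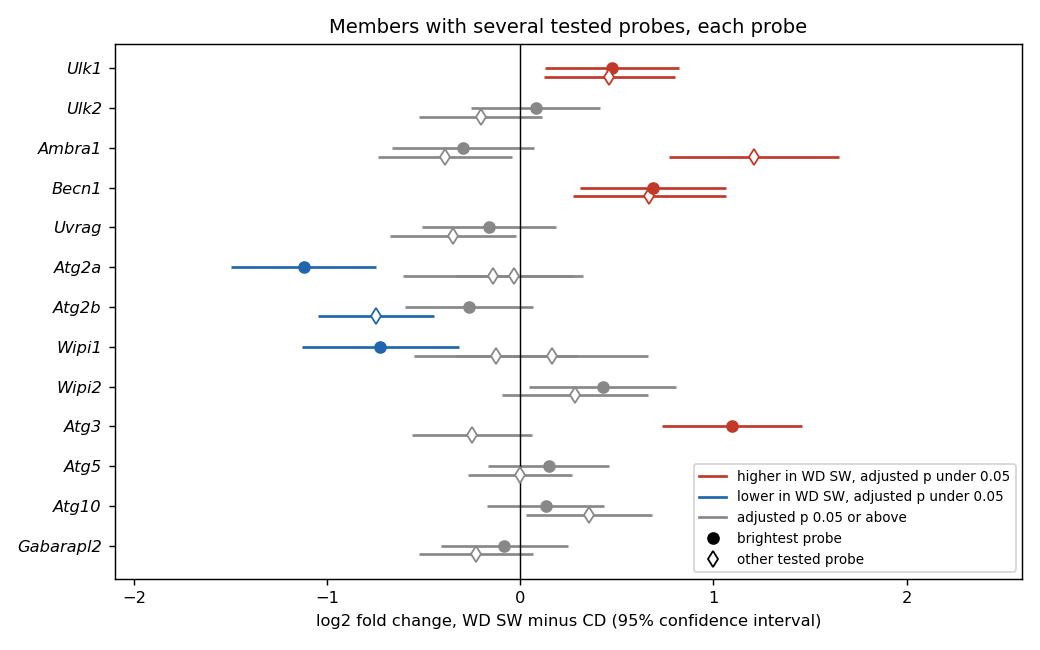
The log2 fold change (WD SW minus CD, x axis) of every tested probe of the members with several tested probes, with 95% confidence intervals. Filled circles are the brightest probe of a gene and open diamonds the others. Both probes of Ulk1 and of Becn1 lie to the right of 0, whereas those of Ambra1, Atg2a, Wipi1 and Atg3 spread apart.

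Among the 5 genes that supply membrane to the phagophore, 2 fell and 3 did not pass. *Atg2a* encodes a protein that carries lipids from the endoplasmic reticulum into the phagophore and that also sits on lipid droplets. Its brightest probe (ILMN_2963432) read 6.46, 6.66, 6.56, 6.95 and 6.89 on the WD SW arrays and 7.95, 7.95, 7.53, 7.41 and 8.27 on the CD arrays. All WD SW arrays lay below all CD arrays, and the bright CD replicate 1 was among the higher CD arrays. The decrease was 2.17-fold (log2 fold change -1.12 ± 0.18, adjusted p = 0.00034). It held with the covariate (-1.28 ± 0.29, adjusted p = 0.026) and against CD replicate 1 alone (-1.25 ± 0.23, adjusted p = 0.0129). The other 2 tested probes of *Atg2a* gave -0.03 ± 0.14 (adjusted p = 0.889) and -0.14 ± 0.22 (adjusted p = 0.658), so the decrease was carried by 1 of 3, and averaging the probes gave -0.43 ± 0.14 (adjusted p = 0.0295). With arrays scaled to the median of all probes the call was lost (-0.32 ± 0.25, adjusted p = 0.303).

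*Wipi1*, which reads the lipid made by the kinase complex, read (ILMN_2834677) 6.43, 6.72, 6.41, 7.12 and 6.85 on the WD SW arrays and 7.02, 7.19, 7.73, 7.35 and 7.86 on the CD arrays. WD SW replicate 4 lay above CD replicate 1, and apart from this pair the groups were separate. *Wipi1* fell by 0.72 on the log2 scale (-0.72 ± 0.19, adjusted p = 0.0101), a call that was lost with the covariate (-0.29 ± 0.29, adjusted p = 0.625), with CD replicate 1 as sole control (-0.31 ± 0.27, adjusted p = 0.497) and, as 0.10 ± 0.19, with arrays scaled to the median of all probes. The other tested *Wipi1* probes gave 0.16 ± 0.23 and -0.13 ± 0.20, and the average over probes was -0.23 (adjusted p = 0.258).

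The remaining 3 members of this group did not pass by their brightest probe. *Atg2b*, the paralog of *Atg2a*, stood at -0.27 ± 0.16 (adjusted p = 0.208), while its other tested probe fell to values of 6.50 to 6.90 in WD SW from 7.17 to 7.57 in CD without overlap (-0.74 ± 0.14, adjusted p = 0.00131). *Wipi2*, which recruits ATG16L1, stood at 0.43 ± 0.18 (adjusted p = 0.0808) and *Atg9a*, the lipid scramblase of the seed vesicles, at -0.18 ± 0.21 (adjusted p = 0.536).

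**Figure D4:**
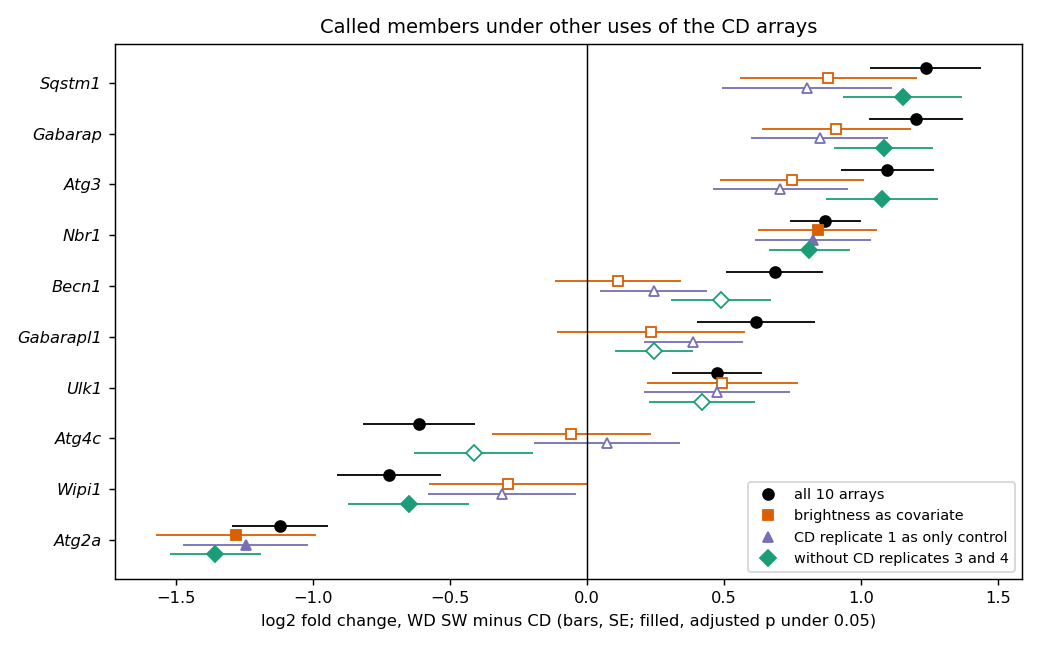
The log2 fold change (WD SW minus CD, x axis) of the 10 called members in 4 fits: all 10 arrays, brightness added as covariate, only CD replicate 1 as control, and CD replicates 3 and 4 left out. Bars are 1 SE. Filled symbols pass an adjusted p of 0.05, which Atg2a and Nbr1 do in all 4 fits, although Nbr1 was at background on every CD array.

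The members varied among themselves in how closely the arrays of a diet agreed. The median SD over the 32 members was 0.21 on the log2 scale in WD SW and 0.31 in CD, and 24 of the 32 varied more in CD. Over all genes tested the medians were 0.20 and 0.29, and 73.6% varied more in CD. Within CD the SD ranged from 0.10 (*Nbr1*, at background) to 0.74 (*Map1lc3a*). In the table normalized by the authors, all 32 log2 fold changes had the same sign as above and 9 of the 10 calls remained, all but that of *Atg4c*.

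The next question was whether genes around the core machinery, in the sensing of nutrients, in transcription, in other cargo receptors and in fusion with the lysosome, differed between the diets. Of a further 71 such genes, 61 were tested, 14 were higher in WD SW and 8 lower. These calls make up 36.1% of the genes tested, beside the 30.0% of all genes, and their median log2 fold change was 0.13. With brightness as a covariate 2 were higher and 4 lower, or 9.84% of the genes tested, beside 4.12% of all genes in that fit. Scaling to the median of all probes turned the log2 fold changes of *Tsc1*, *Atf4*, *Epg5*, *Ccpg1* and *Stx17*, all lower here, to values from 0.02 to 0.26. The other lower genes, *Sesn1*, *Atg101* and *Lamp2*, shrank to -0.12, -0.10 and -0.31 under that scaling.

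Among nutrient and energy sensors, 3 of 15 tested genes rose and 2 fell. *Mtor*, the kinase that represses ULK1 when amino acids are plentiful, rose by 1.33 ± 0.16 (adjusted p = 5.15e-05), and *Rheb*, the small GTPase that activates it, by 0.71 ± 0.13 (adjusted p = 0.00105). *Sesn1*, an inhibitor of mTORC1 signaling, fell by 0.92 on the log2 scale (-0.92 ± 0.16, adjusted p = 0.000795). All 3 also passed against CD replicate 1 alone, at 1.40, 0.85 and -0.98, while with the covariate *Mtor* and *Sesn1* passed and *Rheb* did not (0.77 ± 0.22, adjusted p = 0.0569). A second tested probe of *Mtor* gave -0.09 ± 0.21 (adjusted p = 0.773) and one of *Sesn1* -0.28 ± 0.20 (adjusted p = 0.310), so each change was carried by 1 of 2 probes. *Prkag1*, a regulatory subunit of AMPK, rose by 0.70 ± 0.19 but stood at 0.07 against CD replicate 1 alone. *Tsc1*, a brake on RHEB, fell (-0.51 ± 0.18, adjusted p = 0.0428), but not at its other tested probes (-0.06 ± 0.14 and -0.05 ± 0.17). Its call was lost without WD SW replicate 1, 2, 3 or 4 and without CD replicate 2, 3 or 5, with values from -0.61 to -0.36 over the 10 fits that each left out 1 array.

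Among transcription factors, *Nfe2l2*, which encodes NRF2, rose by 1.30 ± 0.18 (adjusted p = 0.000161) with no overlap between the groups, and against CD replicate 1 alone by 1.13 (adjusted p = 0.0271). With the covariate it missed the threshold (adjusted p = 0.0684). *Atf4*, the factor of the integrated stress response, fell by its brightest probe (-0.62 ± 0.20, adjusted p = 0.031) and rose by another (1.44 ± 0.24, adjusted p = 0.000524). The call of the brightest *Atf4* probe was lost without WD SW replicate 1, 4 or 5 and without CD replicate 1 or 2, with values from -0.72 to -0.45 over those 10 fits. The probes of *Tfeb*, the master regulator of lysosomal genes, did not reach the detection filter, and the other 6 tested factors, *Foxo1*, *Foxo3*, *Hif1a*, *Mitf*, *Tfe3* and *Zkscan3*, did not pass.

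Of 11 other core factors tested, 3 rose and 2 fell by their brightest probes. *Nrbf2*, a subunit of the beclin 1 complex, rose by 0.77 ± 0.14 (adjusted p = 0.00121) and by 0.98 against CD replicate 1 alone (adjusted p = 0.0157), but missed the threshold with the covariate (0.87 ± 0.24, adjusted p = 0.0549). *Atg101*, which stabilises ATG13 in the ULK1 complex, fell by 0.83 on the log2 scale (-0.83 ± 0.16, adjusted p = 0.00157), and *Epg5*, a tether between autophagosome and lysosome, gave -0.67 ± 0.14 (adjusted p = 0.00295). Both decreases also passed with the covariate (-1.18 and -0.87) and likewise against CD replicate 1 alone (-1.14 and -0.92). *Rubcn*, an inhibitor of autophagosome maturation detected on 2 of the 5 CD arrays, increased by 0.86 ± 0.24 (0.40 against CD replicate 1 alone, adjusted p = 0.447). *Sh3glb1*, a membrane-bending partner of UVRAG, rose by 0.62 ± 0.17 at its brightest probe and stood at -0.22 ± 0.22 at another. *Vmp1* did not pass by its brightest probe (0.003 ± 0.16), but its other tested probes disagreed. Probe ILMN_2616768, above background on 1 of the 5 CD arrays, rose by 2.10 ± 0.20 (adjusted p = 9.86e-06). ILMN_2591777 and ILMN_2591781 were called lower (-0.78 ± 0.23 and -0.72 ± 0.20), and ILMN_2861787 did not pass (-0.07 ± 0.19).

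Among other cargo receptors, 3 of 13 rose and 1 fell. *Rtn3*, a receptor for tubules of the endoplasmic reticulum, rose by 0.80 ± 0.19, *Ncoa4*, the ferritin receptor, by 0.80 ± 0.19 and *Tax1bp1*, a ubiquitin-binding receptor, by 0.44 ± 0.14, while *Ccpg1*, a receptor for the endoplasmic reticulum, fell (-0.47 ± 0.13). All 4 missed the threshold with the covariate and also against CD replicate 1 alone, where *Rtn3* stood at 0.37 and the others at 0.71, 0.62 and -0.51. Leaving out WD SW replicate 1, 2 or 5 or CD replicate 4 also removed the *Tax1bp1* call, with values from 0.39 to 0.50 over the 10 fits that each left out 1 array.

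In the step of fusion with the lysosome, 4 of 14 tested genes rose and 2 fell. The SNARE proteins *Ykt6* and *Vamp8*, which drive membrane fusion, rose by 1.61 ± 0.23 (adjusted p = 0.000152) and 1.01 ± 0.20 (adjusted p = 0.00202), and the GTPase *Rab7* of late endosomes by 0.72 ± 0.15 (adjusted p = 0.00223). Against CD replicate 1 alone these stood at 1.16, 0.46 and 0.59 and did not pass. *Stx17*, the SNARE of the autophagosome itself, fell at its brightest (-0.43 ± 0.13) and at a second probe (-0.48 ± 0.12). The call of the brightest was lost without WD SW replicate 1, 3, 4 or 5, with values from -0.50 to -0.40 over the 10 fits that each left out 1 array. Probes of *Lamp2*, a membrane protein of the lysosome, disagreed, with called values of -0.60 ± 0.14 at the brightest, -0.77 ± 0.13 at a second and 0.92 ± 0.17 at another, and 3 more that did not pass (-0.27 to -0.17).

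**Figure D5:**
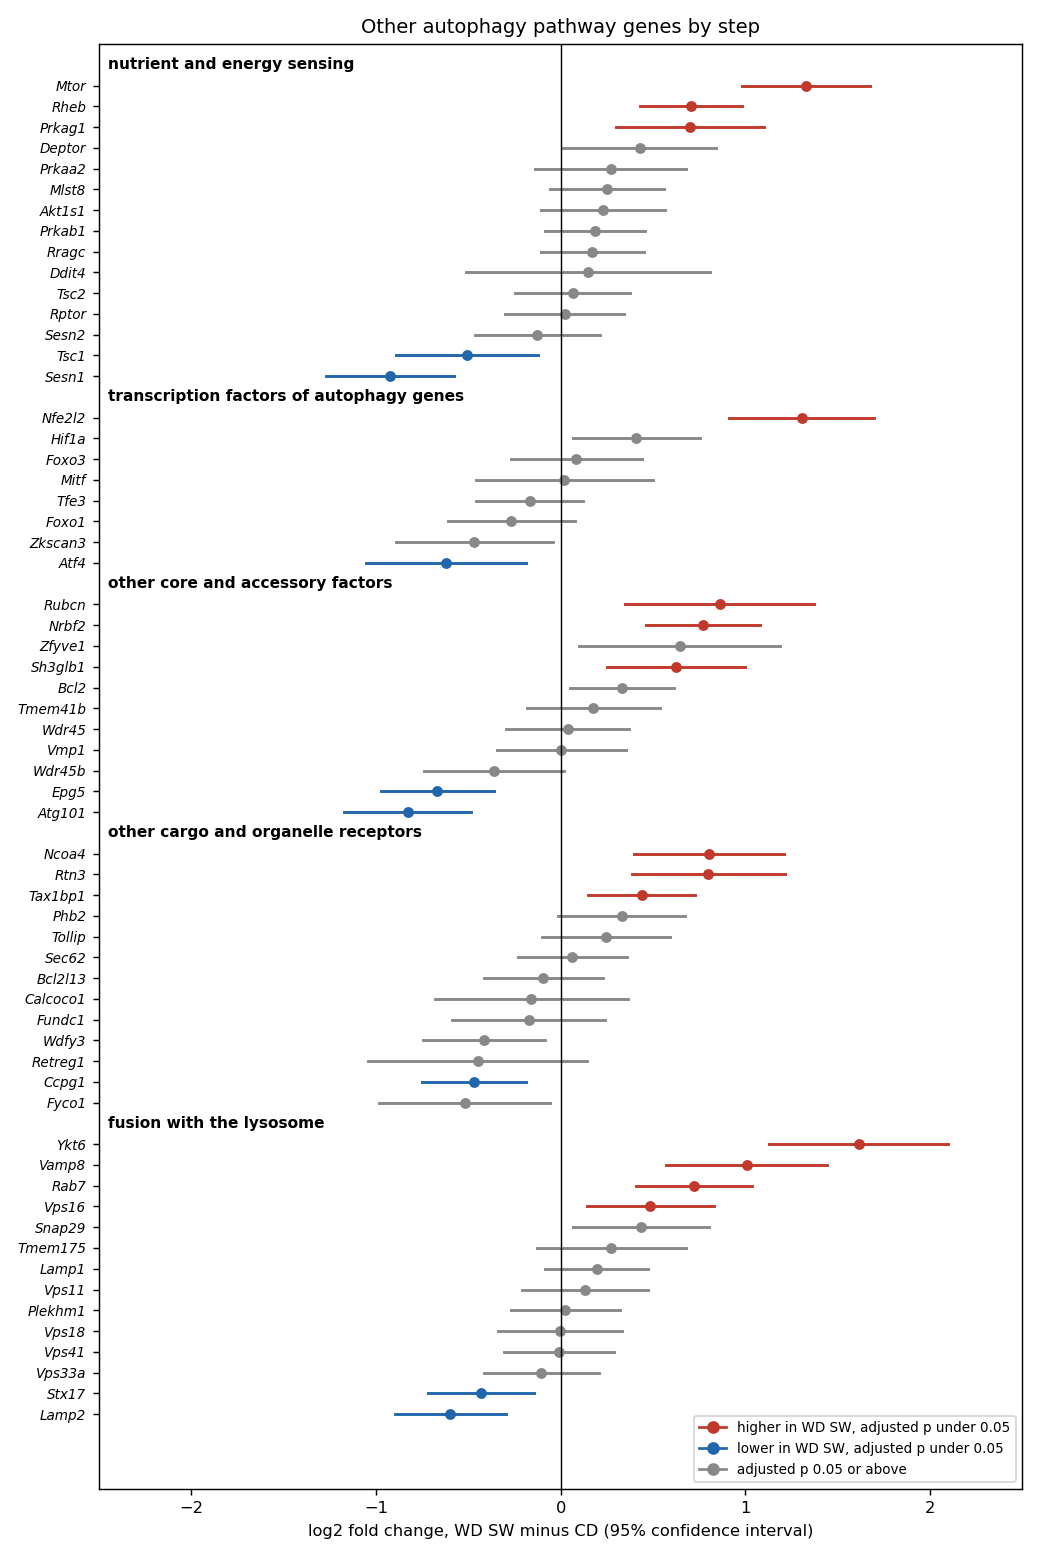
The log2 fold change (WD SW minus CD, x axis) of the 61 tested genes around the core machinery, each by its brightest probe, grouped by step, with 95% confidence intervals. The 14 higher (red) and 8 lower (blue) genes are spread over all 5 steps, with Ykt6 at 1.61 and Sesn1 at -0.92 as the ends of the range.

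The tissue label was checked with marker genes, and markers of other cell types are given because some of them moved between the diets. The hepatocyte genes *Apoa1*, *Ttr* and *Cyp2e1* were above background on every array at log2 signals over 14, and the summed linear signal of 6 hepatocyte markers was 88296 to 94928 in WD SW and 75822 to 89362 in CD. Of these 6, *Alb* (-1.93 ± 0.22) and *Tat* (-0.54 ± 0.13) fell by the probes used here. The *Alb* probe averaged only 7.16 in WD SW and 9.09 in CD, far below the signals of *Apoa1*, *Ttr* and *Cyp2e1*. *Cps1* did not pass by its brightest probe (0.32 ± 0.19) and was called higher by a second (0.70 ± 0.19). The sum of 4 tested macrophage markers overlapped between the diets (1589 to 2556 and 1005 to 2333), and of these *Csf1r* rose by 0.91 ± 0.20. The sums of 5 stellate cell markers (1467 to 1765 against 1237 to 1458) and of 4 sinusoidal endothelial markers (357 to 454 against 257 to 349) were higher in WD SW without overlap, with 3 of the 5 and 1 of the 4 called higher. Among the endothelial markers *Lyve1* rose (1.32 ± 0.35) and *Kdr* fell (-0.50 ± 0.16). Most of the stellate sum came from *Reln*, which did not pass (0.23 ± 0.13). The stellate marker *Des* went the other way and did not pass either (-0.41 ± 0.19). *Sox9*, the only tested bile duct marker, fell at its brightest probe (-2.09 ± 0.23), while its second tested probe did not pass (-0.37 ± 0.21). The 2 tested markers each of lymphocytes (73.5 to 84.6 against 51.9 to 74.1) and neutrophils (73.0 to 154 against 96.4 to 580) did not pass. The sum of 2 red cell precursor genes was 4889 to 6677 in WD SW and 2769 to 4630 in CD. Of these 2, *Hba-a1* rose (0.90 ± 0.21) and *Alas2* did not pass (-0.05 ± 0.22). Other markers of these lists were not tested. The part of cell composition in the values of the autophagy genes was not tested.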

How the data were processed

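The authors deposited 2 tables for 10 arrays (5 WD SW, 5 CD), both of linear probe intensity. The first is unnormalized with background not subtracted, and was used for all results. The second was normalized by the authors with a method not given in the sources used here, and served as an alternative. Probe genes came from the platform annotation (34885 probes with 1 symbol, 18 with several, 10378 with none), with symbols updated by gene identifier through the GRCm38.p6 RefSeq table. Of the 36 members, 34 have a probe.

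Background level and spread were taken per array from the mode of the log2 intensity (kernel bandwidth 0.02) and the values below it. A probe was detected at a one-sided normal p under 0.05 and tested if detected on at least 5 arrays (17368 of 45281 probes with or without a symbol). Intensities were corrected by normexp (offset 16), quantile normalized and log2 transformed. Quantile normalization hides a shift common to most genes. WD SW minus CD was fitted per probe on all 10 arrays with limma 3.58.1 (R 4.3.3), without covariates, with Benjamini-Hochberg adjustment over all tested probes and a threshold of 0.05. Intervals are 95% intervals of limma's moderated model. The brightest probe stood for a gene. Replicate numbers only name arrays and pair none. The labels describe separate samples, so p-values reflect the variation among these samples, which may be in part technical, and the number of arrays limits the precision. No array duplicated another (highest correlation within a diet 0.988). The numbers in the titles (WD SW, 5 and 7; CD, 12 to 14) have no stated meaning and served as a random block in 1 alternative.

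The members and lists were chosen with earlier results of these data known. Values on all arrays are given for called members, the ATG8 family, *Sqstm1* and *Bnip3l*. Called probes of a member that differ in sign from other called probes were to be named. The *Ambra1* probe given on all arrays was chosen after its values were seen. *Bnip3* was not tested. Up to 3 higher and 3 lower genes are named per further list. *Vmp1* is named because its probes were seen to disagree. The fit was tested on simulated data. Alternatives covered background, normalization, filter, probe choice, variance model, array weights, title number, brightness, the control arrays and leaving out each array.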

Additional observations from a re-analysis of the deposited data

Results flagged for a closer look

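In 4 of 64 groups of 5 arrays (32 members, 2 diets), 1 array lay apart from the other 4 by more than Dixon's 95% criterion, a rate near the 1 in 20 that chance gives. *Becn1* read 6.63 on WD SW replicate 1, above the other WD SW arrays at 6.33 to 6.38. *Gabarap* read 10.65 on WD SW replicate 2, below the others at 11.15 to 11.31. *Wipi2* read 7.81 on CD replicate 1, above the other CD arrays at 6.97 to 7.15. *Nbr1* read 4.74 on CD replicate 3, where no CD array was above background. Without WD SW replicate 1 the *Becn1* increase was 0.63 ± 0.19 and without WD SW replicate 2 that of *Gabarap* was 1.31 ± 0.17, both called.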

How the results depend on the processing

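Scaling moved the counts. Scaled to the median of all probes, most of which lie at background, 20 members were higher and 0 lower (limma, 0 also at an unadjusted p under 0.05) with a median log2 fold change of 0.77. Of the other pathway genes 40 were higher and 0 lower (0 unadjusted) with a median of 0.79, and of all genes 4879 and 152 with 0.48. Of the 32 members 12 changed sign, and those of them called in either fit were *Uvrag* 0.65, *Wipi1* 0.10, *Atg12* 0.65, *Atg16l1* 0.78 and *Gabarapl2* 0.61. Scaled to the median of tested probes, an alternative added once the values were known, 6 members were higher and 6 lower, *Atg4b* turned to -0.46, and of all genes 1224 were higher and 3346 lower (median -0.22). Higher calls made up 48.5% of all calls as reported, 97% and 26.8% under these scalings, and 38.7% (976 higher) among genes detected on all 10 arrays.

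With brightness as covariate 1 member was higher and 1 lower, as were 2 and 4 other pathway genes and 221 and 199 of all genes. Against CD replicate 1 alone these counts were 1 and 2, 5 and 4, and 460 and 408, and 7 members changed sign, of which *Atg4c* (0.073) had been called. Without CD replicates 3 and 4 they were 4 and 3 members and 9 and 9 other pathway genes. Averaging probes and the title number as a random block each left 5 other pathway genes lower, and the block left 5 members higher and 2 lower, without *Ulk1*, *Gabarapl1* and *Atg4c*. Apart from the values given for scaling, the cause was not tested.

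Leaving out 1 array gave 5 to 8 members higher and 2 to 3 lower, 12 to 16 and 5 to 10 other pathway genes (5 lower without WD SW replicate 1 or 4), and 1197 to 1630 and 1177 to 1761 of all genes. *Sqstm1*, *Gabarap*, *Atg3*, *Becn1*, *Atg2a* and *Wipi1* kept their calls in all 10 such fits. *Nbr1* did too, but it was at background on every CD array and was tested only through the WD SW arrays. No paired analysis was possible because the 2 diets share no number in the titles. The number of arrays limits the precision, and for probes near background normexp and the floor compress differences.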
